A study of Mus musculus with 4 samples.

Results

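Interferon-stimulated genes are the genes that cells switch on in response to interferons, and 47 of them were followed here on 4 arrays of myeloid-derived suppressor cells (MDSCs). The genes were listed by name and not by their values, but earlier results of these data were known when they were chosen. Of the 47, 45 had a probe set that the platform annotation ties to that gene alone, out of 18194 such genes on the array, while Isg15 and Ifi44 had none and are not analysed here. Each gene is represented by the probe set of its own with the highest mean over the 4 arrays.

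MDSCs are immature myeloid cells with suppressive functions, and the study examined how they were affected by a long noncoding RNA that the labels call lncMDSC and the paper lnc-C/EBPβ. Bone marrow cells of C57BL/6 mice received a lentivirus and were grown for 4 days with GM-CSF and IL-6, the cytokines that turn marrow cells into MDSCs in culture. The kdLNC array carried RNA of cells with an shRNA against the lncRNA, and kdNC that of cells with a control shRNA, given in the methods as the luciferase shRNA of the same vector kit. The oeLNC array came from cells with a lentivirus that overexpresses the lncRNA, and oeNC from cells with the overexpression control virus. All 4 cultures thus carried a lentivirus, and no array of cells without virus was used here. Each group was 1 culture on 1 array, so that the lncRNA, the culture, the virus preparation and the array cannot be told apart within a pair, and no test between groups was possible. Every difference below is between 2 arrays, with no measure of the spread between cultures.

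Type I interferons bind a receptor that acts through JAK kinases on the transcription factor complex ISGF3, which holds STAT2 and IRF9 and binds the interferon-stimulated response element (ISRE) in promoters. Interferon-γ has a receptor of its own and acts at another motif, the gamma-activated site (GAS). The induced genes encode proteins that sense foreign nucleic acid, block translation, degrade RNA, restrict viral entry or release, or attack the vacuoles of intracellular microbes.

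Each value is the log2 of a deposited intensity, which is linear in signal. The brightest probe set of an array had an intensity of 11778 to 12309, and the median log2 level of an array was 4.17 to 4.24. The measured interferon-stimulated genes had intensities of 38.8 to 11218, and all 45 had a mean above the median over genes (5.07 on the log2 scale), the level above which 9097 genes entered the counts. Rsad2, at the top, lay close to the highest value of each array. Of 10 MDSC markers 7 were measured (Itgam, S100a8, S100a9, Arg1, Nos2, Cybb and Cd33), and all 7 were above that level, while Ly6g, Ly6c1 and Ly6c2 are not analysed here. The lncRNA itself was not matched to a probe set, so that its level on the arrays is not given. Probe sets of 4 bacterial RNAs that serve as array controls (Dap, Lys, Phe and Thr, several probe sets for each) had a median log2 difference of 0.10 between kdLNC and kdNC. It was -0.50 between oeLNC and oeNC, where 24 of 24 were below 0, and 0.43 between oeNC and kdNC, where 22 of 24 were above 0. In all 3 comparisons the median of the interferon-stimulated genes had the opposite sign to these medians. Probe sets of the further array controls bioB, bioC, bioD and cre had mixed signs in each comparison. They ran from -0.25 to 0.21 in kdLNC minus kdNC, from -0.36 to 0.23 in oeLNC minus oeNC, and from -0.17 to 0.25 in oeNC minus kdNC. The 3' to 5' log2 ratio of beta-actin, a sign of RNA quality, was 1.96 in kdLNC, 1.61 in kdNC, 1.97 in oeLNC and 1.96 in oeNC, and that of Gapdh was 0.69, 0.51, 0.65 and 0.53 in the same order. The part of these values in the results was not tested.

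After knockdown, most interferon-stimulated genes were slightly lower. In bulk RNA, fewer cells of a type and less RNA per cell cannot be told apart. Of the 45, 34 were lower in kdLNC than in its control kdNC, where 58.5% of the 9097 genes were, and the median log2 difference was -0.18 (quartiles -0.38 and -0.02) against -0.05 over all these genes. At least 1.5-fold lower were 7 genes (Ifit1bl1, Mx1, Bst2, Isg20, Oasl1, Mx2 and Ifit3), where 1.91% of all genes were, and 1 gene was at least 1.5-fold higher (Ifi204, where 2.46% were). At least 2-fold lower, the fold used in the methods, was 1 gene, Ifit1bl1 (0.363% of all genes), and none was 2-fold higher (0.506%).

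After overexpression, most were higher. Of the 45, 35 were higher in oeLNC than in oeNC, where 43.6% of the genes were, and the median log2 difference was 0.30 (quartiles 0.09 and 0.54) against -0.05 over all genes. At least 2-fold higher were 4 genes, Ifit1bl1, Gm4951, Ifit2 and Ifi47 (0.209% of all genes), and none was 2-fold lower (0.671%). At least 1.5-fold higher were 9, which add Igtp, Trim25, Iigp1, Samhd1 and Ifit3 (2.34% of all genes), and only Ifi204 was lower by as much (5.39%).

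By the median, the control arrays differed from each other by more than either pair did. Of the 45 genes, 40 were lower in oeNC than in kdNC (55% of all genes), with a median log2 difference of -0.47 (quartiles -0.76 and -0.22) against -0.06 over all genes. At least 2-fold lower in oeNC were 7 genes (4.46% of all genes), namely Gm4951, Ifit1bl1, Ifit2, Ifi47, Iigp1, Igtp and Ifih1, and at least 1.5-fold lower were 19 (13.6%). Ifi204 was the 1 gene at least 1.5-fold higher in oeNC (9.88%). The vectors of kdNC and oeNC, their cultures and their arrays cannot be told apart here. This difference bears on both pairs, because kdNC was the highest of the 4 arrays for 29 of the 45 genes (29.3% of all genes) and oeNC the lowest for 30 (28.5%), both at once for 22 (14.7%). The kdLNC array lay between the control arrays for 29 of the 45 genes (38.5% of all genes), the oeLNC array for 30 (48.5%) and both for 24 (23.2%). Set against the mean of both control arrays in place of its own control, kdLNC had a median log2 difference of 0.0705 over the 45 genes and oeLNC one of 0.0715, so that the direction of the knockdown median turned. The number of genes whose difference changed sign was 18 for kdLNC and 7 for oeLNC. Each result below carries this dependence on the control array.

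**Figure D1:**
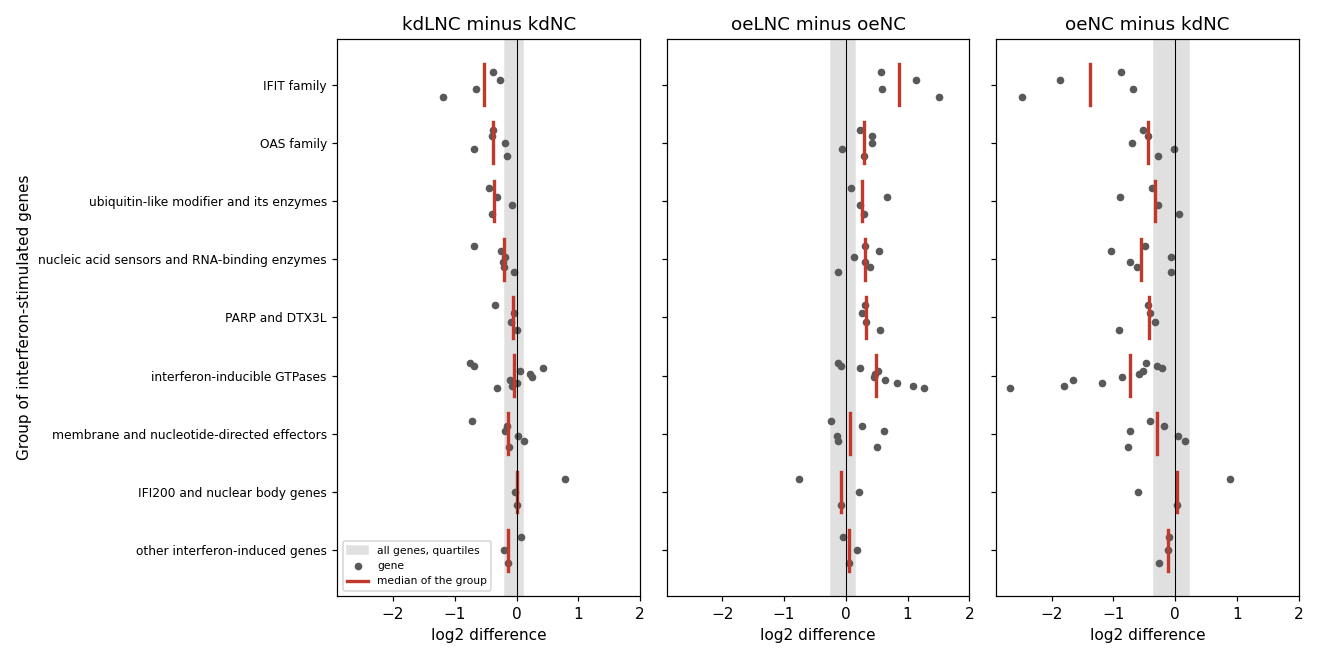
Log2 differences of the 45 interferon-stimulated genes by functional group for the knockdown pair (kdLNC minus kdNC), the overexpression pair (oeLNC minus oeNC) and the control arrays (oeNC minus kdNC). Each point is 1 gene, the red line is the median of its group and the grey band spans the quartiles of the 9097 genes above the filter. The IFIT group has medians of -0.52, 0.87 and -1.38 in the 3 panels.

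The IFIT genes, whose proteins bind foreign RNA and keep it from being translated, had the lowest median of all 9 functional groups after knockdown and the highest after overexpression, -0.52 and 0.87, and a median of -1.38 between the control arrays. All 4 measured genes were lower in kdLNC than in kdNC, higher in oeLNC than in oeNC and lower in oeNC than in kdNC. Ifit1bl1 had log2 levels of 10.33 in kdLNC and 11.52 in kdNC, and of 10.54 in oeLNC and 9.04 in oeNC. It was 2.28-fold lower in kdLNC than in kdNC, 2.84-fold higher in oeLNC than in oeNC and 5.60-fold lower in oeNC than in kdNC. It was the 1 gene of the 45 that passed 2-fold in both pairs in opposite directions, as 0.022% of all genes did. Both lncRNA arrays lay between the control arrays, and against the mean of both controls the difference was 0.05 for kdLNC and 0.26 for oeLNC. Ifit2 had log2 levels of 11.35 in kdLNC and 11.61 in kdNC, and of 10.89 in oeLNC and 9.74 in oeNC. Its oeNC value stood apart from the other 3, and oeLNC was 2.21-fold higher than oeNC. Ifit3 had 10.92 in kdLNC and 11.58 in kdNC, and 11.49 in oeLNC and 10.90 in oeNC. Both its kdNC and oeLNC values were high and both its kdLNC and oeNC values low, with log2 differences of -0.66 and 0.59, and with Ifit1bl1 it was 1 of 2 genes at least 1.5-fold lower in kdLNC and at least 1.5-fold higher in oeLNC (0.143% of all genes). Ifit1, which binds RNA whose cap lacks methylation, had 12.06 in kdLNC and 12.44 in kdNC, and 12.13 in oeLNC and 11.56 in oeNC. Its differences of -0.38 and 0.57 had the same signs. Ifit3 has a near-identical copy, Ifit3b, and cross-hybridisation between them was not tested.

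The promoters of the IFIT genes are shown because this group had the largest median differences. Promoter sequences of RefSeq (mouse build GRCm38.p6, 250 bases before to 50 after the transcription start) were found for 32 of the 45 genes. They were searched on both strands for the core of the ISRE, which is a pair of GAAA with any 2 bases between, and the core of the GAS, TTCNNNGAA, and matches stand in capitals in the sequences below, where an ISRE core on the opposite strand reads as its reverse complement. Ifit1 and Ifit3, which lie in the IFIT cluster on chromosome 19, each hold 2 ISRE cores, and each of the 2 windows of Ifit1bl1, of which 1 is shown, holds 1. The windows are chr19:34640639-34640938 on the plus strand for Ifit1, chr19:34583279-34583578 on the plus strand for Ifit3 and chr19:34601919-34602218 on the minus strand for Ifit1bl1, and no GAS core is in them. Ifit2 differs from these 3, with no ISRE core in either of its 2 windows and a GAS core in the one shown, chr19:34550444-34550743 on the plus strand.
Ifit1: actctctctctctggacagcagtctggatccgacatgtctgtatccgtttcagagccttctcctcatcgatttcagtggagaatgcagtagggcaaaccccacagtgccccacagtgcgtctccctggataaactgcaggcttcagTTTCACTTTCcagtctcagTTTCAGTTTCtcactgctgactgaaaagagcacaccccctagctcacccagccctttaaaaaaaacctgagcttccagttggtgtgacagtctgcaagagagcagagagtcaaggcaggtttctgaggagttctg
Ifit3: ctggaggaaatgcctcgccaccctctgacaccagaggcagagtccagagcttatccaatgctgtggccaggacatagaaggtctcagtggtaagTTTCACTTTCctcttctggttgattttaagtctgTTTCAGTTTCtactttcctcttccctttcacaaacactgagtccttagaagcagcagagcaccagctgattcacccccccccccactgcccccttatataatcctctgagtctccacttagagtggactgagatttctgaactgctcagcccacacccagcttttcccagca
Ifit1bl1: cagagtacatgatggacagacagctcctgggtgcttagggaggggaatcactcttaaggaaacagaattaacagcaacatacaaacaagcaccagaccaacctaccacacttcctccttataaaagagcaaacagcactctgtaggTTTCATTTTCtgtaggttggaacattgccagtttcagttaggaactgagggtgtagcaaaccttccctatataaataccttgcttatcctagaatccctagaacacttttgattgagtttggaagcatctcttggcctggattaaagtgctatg
Ifit2: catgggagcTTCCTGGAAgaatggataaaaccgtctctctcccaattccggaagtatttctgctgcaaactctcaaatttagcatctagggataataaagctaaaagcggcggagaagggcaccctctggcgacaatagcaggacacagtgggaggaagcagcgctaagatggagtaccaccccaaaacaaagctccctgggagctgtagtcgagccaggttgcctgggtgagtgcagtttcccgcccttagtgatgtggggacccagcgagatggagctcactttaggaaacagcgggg
Counted from the transcription start, the ISRE cores begin at -104 and -85 in Ifit1, at -156 and -122 in Ifit3 and at -104 in Ifit1bl1, and the GAS core of Ifit2 begins at -241. Among the 32 genes, 17 (53.1%) had an ISRE core, against 310 of 7454 genes (4.16%) above the filter with a promoter, and 11 (34.4%) had a GAS core, against 8.16%. Both cores were found in 6 of the 32 (18.8%), against 0.644%. Counted over windows of this length, 45.2% of 42 windows of the members and 3.44% of 32851 windows in all held the ISRE core, and 26.2% and 8.30% held the GAS core. Genes with and without an ISRE core in the window had median log2 differences of -0.15 and -0.15 in kdLNC against kdNC, of 0.42 and 0.29 in oeLNC against oeNC, and of -0.60 and -0.28 in oeNC against kdNC. With and without a GAS core the medians were -0.19 and -0.15, 0.30 and 0.29, and -0.52 and -0.52. A match is a match of letters, not a measured binding site.

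Most OAS genes encode enzymes that sense double-stranded RNA and make oligoadenylates, the activators of RNase L. All 5 measured genes of the OAS family were lower in kdLNC than in kdNC, with a median of -0.39. Of these, 4 were higher in oeLNC than in oeNC, and the median of the 5 was 0.29. Oas1a had log2 levels of 11.55 in kdLNC and 11.93 in kdNC, and of 11.65 in oeLNC and 11.41 in oeNC. Oas2 had 9.38 in kdLNC and 9.78 in kdNC, and 9.76 in oeLNC and 9.33 in oeNC. For both, kdNC was the highest array and oeNC the lowest, as it was for Oas3 (-0.18 in the knockdown pair and 0.42 in the overexpression pair). Oasl1, whose mouse protein represses the translation of Irf7, had another pattern, with 10.38 in kdLNC and 11.06 in kdNC, and 10.98 in oeLNC and 11.04 in oeNC. Only kdLNC stood apart, with a difference of -0.68 from kdNC, while the other differences were -0.07 and -0.02. Oasl2 differed least in the knockdown pair, by -0.15, and had 0.29 in the overexpression pair.

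The genes of ISG15 conjugation and of the TRIM ubiquitin ligases had medians of -0.36 in the knockdown pair and 0.26 in the overexpression pair over the 4 that were measured. Usp18, which removes ISG15 from proteins and dampens signalling of the type I receptor, had 11.25 in kdLNC and 11.71 in kdNC, and 11.42 in oeLNC and 11.33 in oeNC. Its kdLNC level was the lowest of the 4. Herc6, the main ISG15 ligase in mouse, had 9.94 in kdLNC and 10.34 in kdNC, and 10.69 in oeLNC and 10.40 in oeNC. Its oeLNC level was the highest of the 4 at this probe set. Further probe sets of Herc6 had differences of 0.45, -0.34 and -0.15 in the overexpression pair. Trim25, a ubiquitin ligase that activates the RNA sensor RIG-I, had 10.41 in kdLNC and 10.72 in kdNC, and 10.49 in oeLNC and 9.82 in oeNC. Its difference of 0.67 in the overexpression pair was 0.68 at a second probe set and -0.44 at the third. Trim30a, a mouse TRIM gene, differed by -0.07 and 0.24.

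The 6 nucleic acid sensors and RNA-binding enzymes were all lower in kdLNC than in kdNC, with a median of -0.21, and 5 were higher in oeLNC than in oeNC, with a median of 0.31. Isg20, which encodes an exonuclease, had log2 levels of 11.44 in kdLNC and 12.12 in kdNC, and of 11.94 in oeLNC and 11.64 in oeNC, and was 0.68 lower in kdLNC than in kdNC. Ifih1, which encodes the sensor MDA5, had 10.34 in kdLNC and 10.59 in kdNC, and 10.09 in oeLNC and 9.55 in oeNC. Both its knockdown-pair arrays were above both its overexpression-pair arrays. Dhx58, which encodes the related LGP2, differed by -0.19 and 0.12. Zbp1, a sensor of Z-form nucleic acid, differed by -0.22 and 0.31, and Eif2ak2, the kinase PKR that shuts down translation on sensing double-stranded RNA, by -0.20 and 0.38. Adar, the enzyme that edits adenosines in double-stranded RNA, was nearly level, with 8.53 in kdLNC and 8.56 in kdNC, and 8.38 in oeLNC and 8.50 in oeNC, although a second probe set had -0.58 in the knockdown pair.

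The ADP-ribosyltransferase genes Parp9, Parp12 and Parp14 and Dtx3l, whose product is the partner of PARP9, were all higher in oeLNC than in oeNC, with a median of 0.32, and had a median of -0.06 in the knockdown pair. Dtx3l had 10.11 in kdLNC and 10.10 in kdNC, and 9.74 in oeLNC and 9.19 in oeNC. The knockdown pair of Dtx3l was level, and its difference lay within the overexpression pair (0.56) and between the controls (-0.92). Parp9, which in human shares a bidirectional promoter with DTX3L, had -0.36 in the knockdown pair and 0.32 in the overexpression pair.

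**Figure D2:**
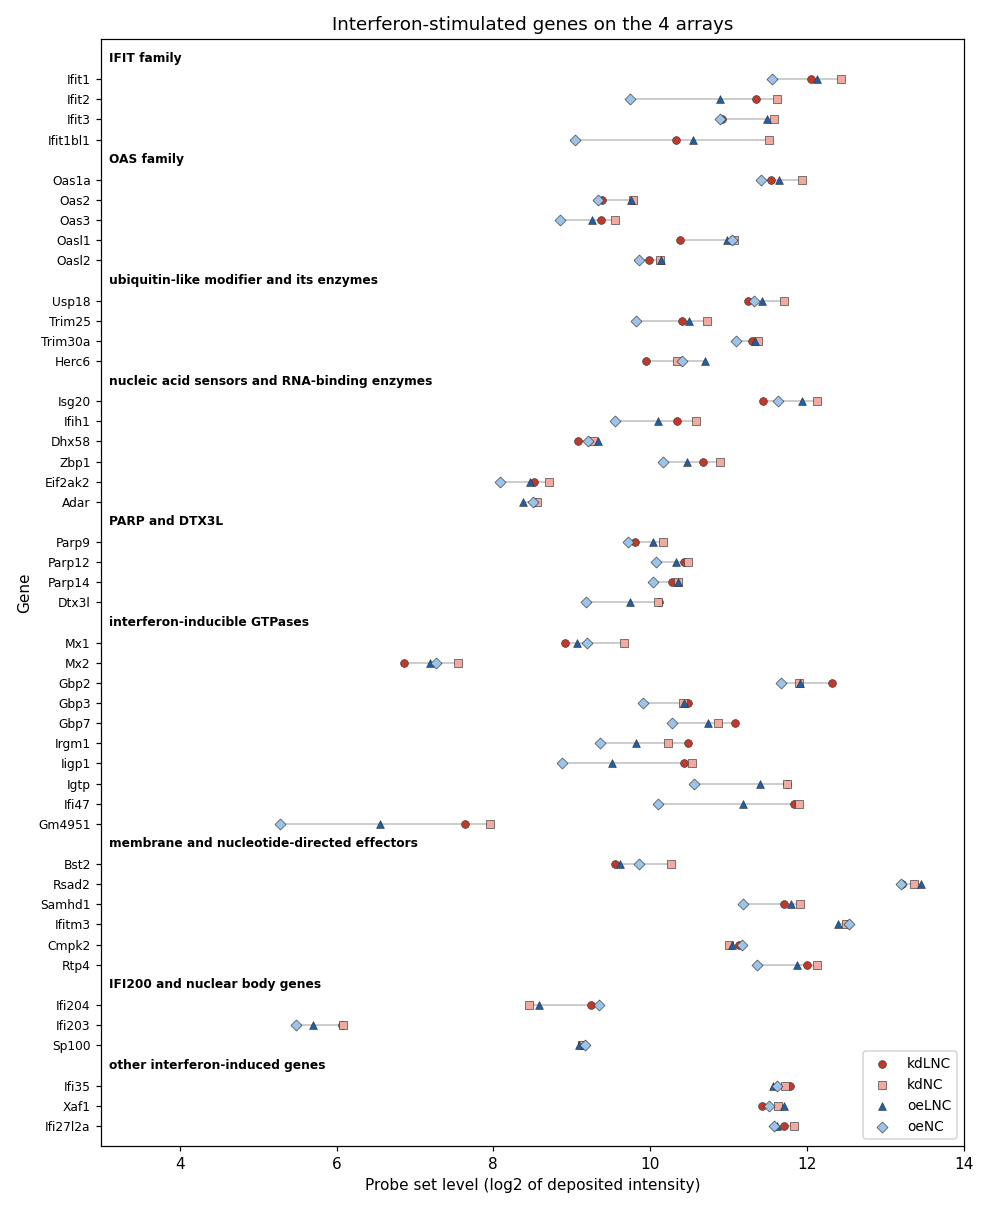
Log2 intensity of the 45 interferon-stimulated genes on each of the 4 arrays, by functional group. Each symbol is 1 array (kdLNC, kdNC, oeLNC, oeNC), and the grey line joins the lowest and highest array of a gene, which lie 0.07 (Sp100) to 2.67 (Gm4951) apart, with a median of 0.68.

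The interferon-inducible GTPases split into MX genes on the one hand and GBP and IRG genes on the other. Functional MX proteins act against viruses inside the cell, and whether these C57BL/6 cultures made functional MX protein was not measured. Mx1 had log2 levels of 8.91 in kdLNC and 9.67 in kdNC, and of 9.07 in oeLNC and 9.20 in oeNC. Mx2 had 6.87 in kdLNC and 7.55 in kdNC, and 7.19 in oeLNC and 7.26 in oeNC. For both, kdNC was the highest and kdLNC the lowest, with differences of -0.76 and -0.68, and the overexpression pair differed by -0.13 and -0.08, where Mx2 was at 0.02 after quantile normalization. GBP and IRG proteins attack the membranes of microbes and of the vacuoles that hold them, and their genes respond to interferon-γ as well as type I interferon. None of these 8 genes was 1.5-fold different after knockdown, with differences of -0.31 (Gm4951) to 0.42 (Gbp2), and all 8 were higher in oeLNC than in oeNC and lower in oeNC than in kdNC. Gm4951, an IRG gene, had log2 levels of 7.64 in kdLNC and 7.95 in kdNC, and of 6.55 in oeLNC and 5.28 in oeNC. The knockdown pair was thus far above the overexpression pair, within which oeLNC was 2.41-fold higher than oeNC. Between the controls Gm4951 was 6.38-fold lower in oeNC than in kdNC, and against the mean of both controls kdLNC was higher by 1.03 and oeLNC differed by -0.07. Ifi47 had 11.83 in kdLNC and 11.90 in kdNC, and 11.18 in oeLNC and 10.10 in oeNC. Igtp had 11.75 in kdLNC and 11.75 in kdNC, and 11.40 in oeLNC and 10.56 in oeNC. Iigp1 had 10.43 in kdLNC and 10.54 in kdNC, and 9.52 in oeLNC and 8.88 in oeNC. These 3 IRG genes had the same order, with nearly level knockdown arrays above oeLNC and oeNC the lowest, and differences of 1.08, 0.83 and 0.64 in the overexpression pair. Irgm1, a regulator of the other IRG proteins, had 10.48 in kdLNC and 10.22 in kdNC, and 9.82 in oeLNC and 9.36 in oeNC. Gbp2 had 12.32 in kdLNC and 11.89 in kdNC, and 11.91 in oeLNC and 11.67 in oeNC. Irgm1, Gbp2, Gbp3 and Gbp7 were all higher in kdLNC than in kdNC, by 0.26, 0.42, 0.06 and 0.22, and also higher in oeLNC than in oeNC, by 0.46, 0.23, 0.52 and 0.47. They were 4 of the 7 members that were highest on kdLNC (24.9% of all genes were), with Igtp, Dtx3l and Ifi35. A second probe set of Gbp7 had -0.02 in the knockdown pair and was highest on oeLNC, and one of Gbp2 had 0.22 in the knockdown pair.

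The promoters of Igtp and Gbp7 are shown because each holds both cores, the ISRE and the GAS, which none of the IFIT windows above does. This does not mark the GBP and IRG genes as a group. Gbp2, Gbp3 and Irgm1 had an ISRE core and no GAS core, and Ifi47 had neither. Bst2, Eif2ak2, Ifitm3 and Oas1a, of other groups, also had both. The windows are chr11:58199306-58199605 for Igtp and chr3:142530086-142530385 for Gbp7, both on the plus strand of GRCm38.p6.
Igtp: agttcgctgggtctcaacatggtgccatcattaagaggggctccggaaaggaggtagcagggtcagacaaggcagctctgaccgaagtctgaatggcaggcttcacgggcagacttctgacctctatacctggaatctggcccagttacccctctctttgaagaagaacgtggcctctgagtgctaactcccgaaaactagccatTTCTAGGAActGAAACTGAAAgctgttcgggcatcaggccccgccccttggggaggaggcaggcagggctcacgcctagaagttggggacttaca
Gbp7: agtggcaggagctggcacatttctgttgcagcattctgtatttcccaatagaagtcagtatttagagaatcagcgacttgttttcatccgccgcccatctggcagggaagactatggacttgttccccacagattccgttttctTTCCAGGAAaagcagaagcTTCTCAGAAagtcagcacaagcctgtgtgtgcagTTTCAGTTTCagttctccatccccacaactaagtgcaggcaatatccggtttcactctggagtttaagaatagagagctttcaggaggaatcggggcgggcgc
In Igtp the GAS core begins at -45 and the ISRE core at -34. In Gbp7 the GAS cores begin at -106 and -87 and the ISRE core at -53.

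**Figure D3:**
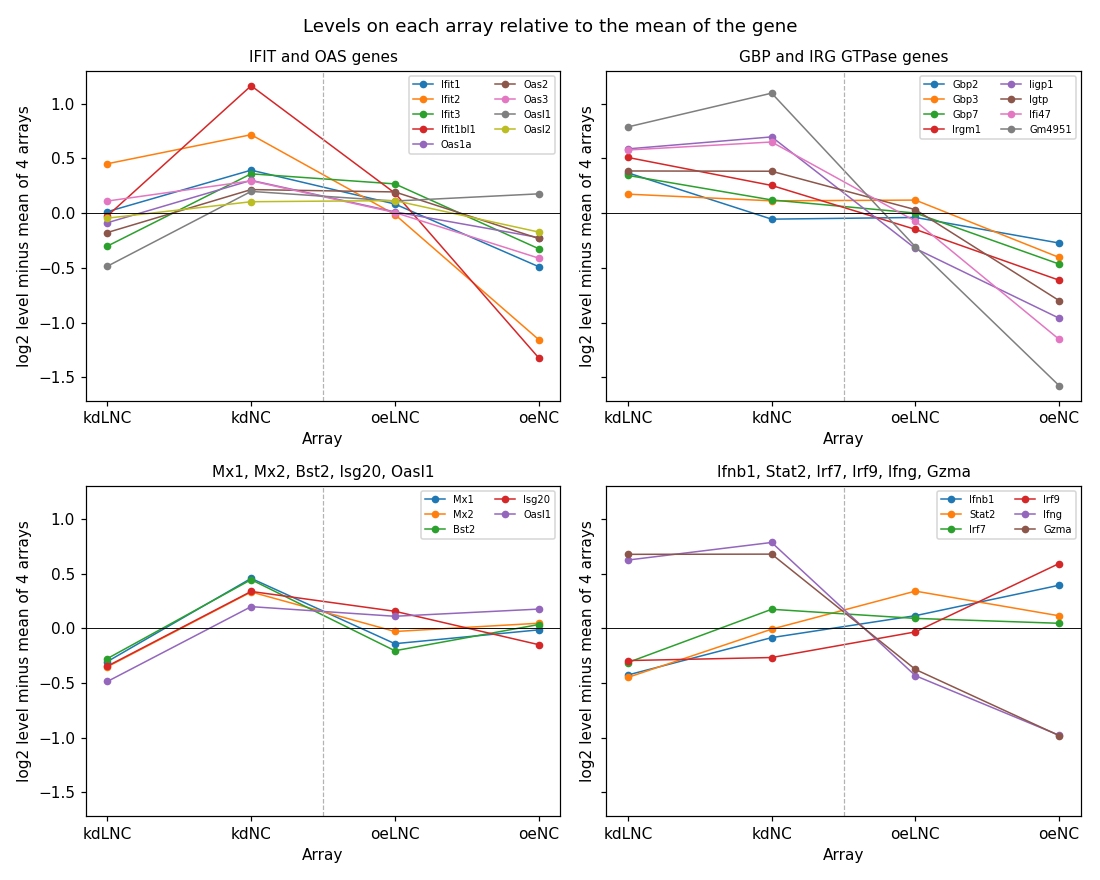
Log2 level on each array minus the mean of the 4 arrays of the same gene, for the IFIT and OAS genes, the GBP and IRG genes, 5 of the 9 members lowest on kdLNC (28.9% of all genes were), and genes of the pathway with Gzma. The dashed line parts the knockdown pair from the overexpression pair, the lines join the values of 1 gene, and all 8 GBP and IRG genes are lowest on oeNC.

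Of the membrane and nucleotide-directed effectors, Bst2 was the most different in the knockdown pair. It encodes tetherin, which holds budding virus particles at the cell surface, and had log2 levels of 9.55 in kdLNC and 10.27 in kdNC, and of 9.62 in oeLNC and 9.86 in oeNC. Both lncRNA arrays were below their controls, by 0.72 and 0.24 on the log2 scale. Its promoter (chr8:71537423-71537722, minus strand, GRCm38.p6) is shown because a GAS core overlaps the first of 2 ISRE cores, which overlap each other, so that they stand as 1 run of capitals.
Bst2: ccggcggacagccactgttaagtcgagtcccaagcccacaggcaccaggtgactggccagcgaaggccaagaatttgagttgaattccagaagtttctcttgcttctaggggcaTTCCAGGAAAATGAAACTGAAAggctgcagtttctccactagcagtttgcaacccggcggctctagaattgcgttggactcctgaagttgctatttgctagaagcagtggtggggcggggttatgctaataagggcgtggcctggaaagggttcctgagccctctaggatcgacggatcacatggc
With Mx1, Mx2, Oasl1 and Adar, Bst2 was 1 of 5 members below 0 in both pairs (30.2% of all genes were). Samhd1, which depletes the nucleotides needed for reverse transcription, had 11.71 in kdLNC and 11.91 in kdNC, and 11.80 in oeLNC and 11.18 in oeNC. At this probe set its oeNC level alone stood apart, and oeLNC was 0.61 above it. The other probe sets of Samhd1 also had oeLNC above oeNC, but their differences in the knockdown pair ran from -0.30 to 0.42. The next brightest had 10.42 in kdLNC and 10.28 in kdNC, and 9.29 in oeLNC and 8.54 in oeNC. Rtp4 was again lowest on oeNC, at 11.37, and had differences of -0.13, 0.50 and -0.76 in the 3 comparisons. Rsad2, or viperin, makes a chain-terminating nucleotide, and had 13.22 in kdLNC and 13.37 in kdNC, and 13.45 in oeLNC and 13.20 in oeNC. A dimmer probe set of Rsad2 gave -0.94 in the knockdown pair and 0.45 in the overexpression pair, where the brightest gave -0.15 and 0.26. Cmpk2, a nucleotide kinase gene next to Rsad2, likewise had 0.13 and -0.13 at its brightest probe set and -0.84 and 0.34 at its second. Ifitm3, which blocks the fusion of virus with the endosome, was level, at 12.53 in kdLNC and 12.50 in kdNC, and 12.40 in oeLNC and 12.54 in oeNC.

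Ifi204 ran against most of the other genes in all 3 comparisons. It encodes a DNA-binding protein of the IFI200 family and had log2 levels of 9.24 in kdLNC and 8.45 in kdNC, and of 8.58 in oeLNC and 9.34 in oeNC. Its kdLNC and oeNC values were high and its kdNC and oeLNC values low, with differences of 0.79 and -0.76, and of 0.89 between the controls. It was the highest of the 45 after knockdown and the lowest after overexpression. Ifi203, of the same family, had 6.06 in kdLNC and 6.08 in kdNC, and 5.69 in oeLNC and 5.48 in oeNC. Sp100, a nuclear body gene, varied least of all 45 at the representing probe sets. It had 9.15 in kdLNC and 9.14 in kdNC, and 9.09 in oeLNC and 9.17 in oeNC. A dimmer probe set of Sp100 had 8.21 in kdLNC and 8.37 in kdNC, and 7.47 in oeLNC and 7.44 in oeNC. Its difference between the controls was -0.92. Ifi35, Xaf1, which promotes apoptosis, and Ifi27l2a had differences of 0.07, -0.20 and -0.13 in the knockdown pair and of -0.05, 0.18 and 0.04 in the overexpression pair.

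Knockdown and overexpression share no array, so the pairs can be set side by side. Lower in kdLNC and higher in oeLNC than their own controls were 29 of the 45 genes (28.2% of all genes), and the reverse held for 5 (25.8%), namely Ifi204, Ifi35, Ifitm3, Sp100 and Cmpk2. At their other probe sets, however, Ifi35, Sp100 and Cmpk2 were lower in kdLNC and higher in oeLNC. Higher in both pairs were 6 (15.2%), the genes Gbp2, Gbp3, Gbp7, Irgm1, Igtp and Dtx3l, of which Igtp and Dtx3l differed by 0.00 and 0.01 in the knockdown pair and by -0.05 and -0.03 after quantile normalization. Gbp7 had -0.02 in the knockdown pair at its second probe set. Between the pairs, Pearson's r was -0.29 and Spearman's rho -0.11 across the 45 genes, against -0.21 and -0.18 across all 9097. This is a description across genes, which share the 4 arrays and are not independent replicates. Of the 7 genes at least 1.5-fold lower in kdLNC and the 9 at least 1.5-fold higher in oeLNC, Ifit1bl1 and Ifit3 were in both lists. Mx1, Mx2, Bst2 and Oasl1 were among the 9 of the 45 that were lowest on kdLNC, where 28.9% of all genes were. Gm4951, Ifi47, Igtp and Iigp1 were among the 30 lowest on oeNC (28.5% of all genes). Both arrays of the knockdown pair were above both of the overexpression pair for 18 of the 45 (36.1% of all genes). The order kdNC, kdLNC, oeLNC, oeNC from high to low was held by 12 of the 45 (11% of all genes).

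**Figure D4:**
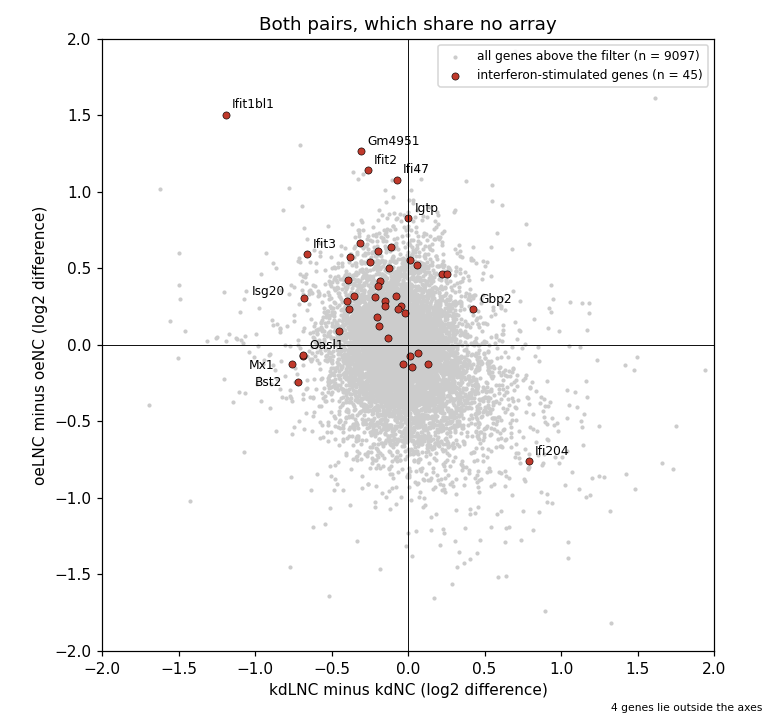
Log2 difference of kdLNC minus kdNC (horizontal) against oeLNC minus oeNC (vertical) for each gene above the filter (grey, n = 9097) and the 45 interferon-stimulated genes (red). Most red points lie at the upper left, where 29 of the 45 genes are lower in kdLNC and higher in oeLNC, and 5 lie at the lower right, Ifi204 the farthest from 0 among them.

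Of the 45 genes 19 had further probe sets, 30 in all. Their median differences were -0.18 for kdLNC minus kdNC, 0.36 for oeLNC minus oeNC and -0.55 for oeNC minus kdNC, close to those of the probe sets that represent the genes. The sign was that of the representing probe set for 17 of 30 in the knockdown pair, for 20 in the overexpression pair and for 24 between the controls. Iigp1 had 0.30 at its second probe set in the knockdown pair, where the first gave -0.11, and Ifi35 had -0.47 and 0.30 at another probe set, against 0.07 and -0.05.

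The genes upstream of the response were set beside it. Of the 19 interferon genes listed, 10 had a probe set and 4 were above the filter, and the Ifna genes are near-identical copies that probe sets may not separate. Ifnb1 had log2 levels of 5.08 in kdLNC and 5.42 in kdNC, and of 5.62 in oeLNC and 5.90 in oeNC. It was lower in both lncRNA arrays than in their controls, with differences of -0.34 and -0.28, and the difference of oeNC from kdNC was 0.48. Ifng, which was below the filter, had 4.43 in kdLNC and 4.59 in kdNC, and 3.37 in oeLNC and 2.83 in oeNC. Both its knockdown-pair levels were above both its overexpression-pair levels. None of the 6 receptor genes differed by 1.5-fold within a pair, with medians of -0.06 and -0.23, and Ifngr1, Ifngr2 and Il10rb passed 1.5-fold between the controls, with oeNC above kdNC by 0.61, 0.71 and 0.64.

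The 11 signalling genes measured had medians of -0.12 in the knockdown pair and 0.04 in the overexpression pair. Stat2 had 7.23 in kdLNC and 7.67 in kdNC, and 8.02 in oeLNC and 7.79 in oeNC. Irf7, the factor that amplifies type I interferon production, had 10.56 in kdLNC and 11.05 in kdNC, and 10.97 in oeLNC and 10.92 in oeNC. Stat2 and Irf7 were both lowest on kdLNC. Irf9, the DNA-binding subunit of ISGF3, had 9.16 in kdLNC and 9.19 in kdNC, and 9.42 in oeLNC and 10.05 in oeNC. Irf9 and Irf8 were the 2 signalling genes at least 1.5-fold lower in oeLNC than in oeNC, by 0.63 and 0.59, so that Irf9 was highest on the array on which 30 of the 45 members were lowest. Of 8 negative regulators 7 were above the filter. Socs1, a feedback inhibitor of JAK kinases, had 7.25 in kdLNC and 7.61 in kdNC, and 7.76 in oeLNC and 6.63 in oeNC. Socs3, which inhibits signalling of IL-6, had 11.28 in kdLNC and 10.53 in kdNC, and 11.51 in oeLNC and 12.11 in oeNC. Socs1 ran with the interferon-stimulated genes (-0.36 and 1.13) and Socs3 against them (0.75 and -0.60).

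Of 14 sensing genes 11 were above the filter, with medians of -0.14 in the knockdown pair and 0.09 in the overexpression pair. Tlr3, the endosomal sensor of double-stranded RNA, was at least 1.5-fold lower in kdLNC (-0.60), with 5.55 in kdLNC and 6.15 in kdNC, and 5.36 in oeLNC and 4.88 in oeNC. Mavs, the adaptor of RIG-I and MDA5, had 6.25 in kdLNC and 5.78 in kdNC, and 5.60 in oeLNC and 6.88 in oeNC. Its oeLNC level was 1.27 below that of oeNC on the log2 scale, opposite in sign to most of the members, and Ddx58, which encodes RIG-I, differed by -0.43 and 0.23.

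The interferon-induced chemokine genes had medians over 6 genes of -0.23 in the knockdown pair, 0.62 in the overexpression pair and -1.53 between the controls, the last 2 being the largest of the 8 pathway lists. Cxcl11, a ligand of CXCR3, had 8.36 in kdLNC and 9.86 in kdNC, and 8.73 in oeLNC and 8.13 in oeNC. Its kdNC level stood far above the other 3, and oeLNC was 0.60 above oeNC. Cxcl9, another ligand of CXCR3 and a target of interferon-γ, had 6.63 in kdLNC and 6.25 in kdNC, and 6.00 in oeLNC and 4.93 in oeNC. Cxcl9 thus followed Gbp2 and Irgm1, higher in both lncRNA arrays than in their controls (0.38 and 1.07). The monocyte chemoattractants Ccl7 and Ccl12 were higher in oeLNC than in oeNC by 0.87 and 0.63, and lower in oeNC than in kdNC, at -2.52 and -1.88. Ccl5 and Cxcl10 did not reach 1.5-fold in any comparison. The 13 genes of antigen presentation had medians of 0.04 in the knockdown pair and 0.13 in the overexpression pair, and none was 1.5-fold different in either.

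Of 63 further interferon-stimulated genes, which also include Stat2 and Irf7, 43 were above the filter. Their medians were -0.22 after knockdown, with 33 of 43 below 0 (58.5% of all genes), 0.22 after overexpression, with 34 of 43 above 0 (43.6%), and -0.34 between the controls, with 36 of 43 below 0 (55%). At least 1.5-fold lower in kdLNC were 2 (1.91% of all genes), Ifitm6 (-1.31) and Daxx (-0.66), and 5 were at least 1.5-fold higher in oeLNC (2.34%), Gbp8 (1.05), Slfn2 (0.75), Slfn5 (0.71), Slfn8 (0.69) and Sp110 (0.68). Ifitm6 had 10.68 in kdLNC and 11.99 in kdNC, and 11.62 in oeLNC and 11.59 in oeNC, so that only kdLNC stood apart. Gbp8 had 6.44 in kdLNC and 5.89 in kdNC, and 5.46 in oeLNC and 4.41 in oeNC, which is the order of Irgm1.

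Markers of cell types that a marrow culture can hold moved with some of these differences. In the knockdown pair, 5 of 9 measured neutrophil markers (Ltf, Camp, Cxcr2, Mmp9 and Ngp) were at least 1.5-fold lower on kdLNC, where 1.91% of all genes were. Csf3r had -0.37, while S100a8, S100a9 and Mmp8 had 0.10, 0.05 and 0.11. The median of the 9 was -1.04. Their summed intensity was 29816 in kdLNC and 37778 in kdNC, and 38462 in oeLNC and 40908 in oeNC. S100a8 and S100a9, which are also on the MDSC list, made up much of this sum, with 10958 and 10541.5 in kdLNC. The plasmacytoid dendritic cell markers Siglech and Ccr9, of cells known for their interferon production, had -0.98 and -1.06 in the knockdown pair and -0.00 and -0.31 in the overexpression pair. The other 4 genes of that list, Tcf4, Spib, Pacsin1 and Klk1, had -0.06, 0.07, 0.23 and 0.09 in the knockdown pair, the list median over the 5 genes above the filter was -0.06, and the summed intensity of the 6 was 1644 in kdLNC, 1734 in kdNC, 1090 in oeLNC and 1013 in oeNC. The T and NK cell list, of cells that make interferon-γ, had a summed intensity over 8 genes of 825 in kdLNC, 868 in kdNC, 550 in oeLNC and 404 in oeNC. Gzma, a granzyme gene that made up much of this sum, had intensities of 513 in kdLNC and 514 in kdNC, and of 248 in oeLNC and 163 in oeNC. Of the T cell receptor complex genes Cd3d, Cd3e and Cd3g only Cd3d was above the filter, and Cd3d, Cd3e and the NK gene Ncr1 were highest on oeLNC, unlike Gzma. Over the 4 genes of the list above the filter the medians were -0.07, 0.43 and -1.09 in the 3 comparisons. The GTPase group had -0.04, 0.50 and -0.73. The same signs were not particular to this list, since the mast cell and basophil list had medians of -0.10, 0.34 and -1.43. The B cell list had 0.08, -0.12 and -1.18. The B cell list summed to 3618 in kdLNC, 3552 in kdNC, 1586 in oeLNC and 1758 in oeNC, and the mast cell and basophil list to 1929, 2302, 1243 and 1025 in the same order. The eosinophil list summed to 1224 in kdLNC and 2284 in kdNC, and to 1069 in oeLNC and 1183 in oeNC. Monocyte, macrophage, conventional dendritic cell and erythroid lists had sums of 4544, 2341, 147 and 99.5 in kdLNC, of 5267, 2355, 167 and 118 in kdNC, of 6414, 2445, 148 and 118 in oeLNC, and of 6087, 2492, 154 and 125 in oeNC. No marker was at 0. The part of these cells in the differences of the interferon-stimulated genes was not tested.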

How the data were processed

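RNA of 4 MDSC cultures was hybridised to Affymetrix mouse genome arrays, 1 array per group. The authors deposited an intensity for each of 45101 probe sets, normalized and linear in signal, and the submitters' processing notes name RMA, with no version. Signal over background is unknown, and precision is limited by having 4 arrays. The log2 was taken with Python 3.11.15, numpy 2.4.6 and pandas 2.3.3, and plots were drawn with matplotlib 3.10.9.

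Probe sets with a single gene symbol in the platform annotation (34958) were used, and those with several (932) or none (9211) were left out. The probe set with the highest mean log2 over the 4 arrays stood for a gene. Genes with a mean above the 50th percentile entered the counts, with 2-fold as the threshold of the methods and 1.5-fold beside it. The limma test that the methods name could not be fitted with 1 array per group. The calculation was tested on simulated data. Promoter sequences are from RefSeq. Of the genes in the lists, 3 were matched through their Entrez ID.

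The interferon-stimulated genes, their 9 functional groups, 8 pathway lists and 11 marker lists were chosen with earlier results of these data known. Every member could be named. Those at least 1.5-fold different within a pair were given with all 4 values, and so were Stat2, Irf9, Irf7, Ifnb1 and Ifng. Further genes of the pathway lists were named from those with the largest differences, some with the difference alone. The brightest and dimmest members were not singled out, since probe set signals are not comparable between genes. Alternatives tried were centring on array medians, quantile normalization, averaging the probe sets of a gene, leaving out probe sets open to cross-matches (suffixes _x, _s and _a), other filters, folds of 1.5 and 3, and a control averaged over kdNC and oeNC.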

Additional observations from a re-analysis of the deposited data

How the results depend on the processing

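The choice of control array moved the values most. An averaged control brings the vector, culture and array differences between kdNC and oeNC into each pair, so it is not an independent check. With kdNC and oeNC averaged into 1 control, the median log2 difference of the 45 interferon-stimulated genes became 0.0705 for kdLNC, where it was -0.18, and 0.0715 for oeLNC, where it was 0.30. The members at least 2-fold higher then numbered 1 for kdLNC (Gm4951, 0.868% of all genes) and 0 for oeLNC (0.033%). In kdLNC 0 were 2-fold lower (0.945%). Ifit1bl1 in kdLNC then had 0.0538 and Gm4951 in oeLNC -0.0674, both opposite in sign to the values against their own control. At 1.5-fold and against the own control, 1 member was higher (2.46% of all genes) and 7 were lower (1.91%) in kdLNC. In oeLNC 9 were higher (2.34%) and 1 was lower (5.39%). In oeNC against kdNC 1 was higher (9.88%) and 19 were lower (13.6%). At 3-fold, 0 were lower in kdLNC (0.044% of all genes), 0 higher in oeLNC (0.022%) and 5 lower in oeNC than in kdNC (0.912%). Under median centring, quantile normalization, averaging of probe sets, exclusion of cross-matching probe sets (38 members left) and other filters, the medians ran from -0.20 to -0.16 for the knockdown pair, from 0.24 to 0.34 for the overexpression pair and from -0.55 to -0.43 between the controls. Of the differences of single members under the alternatives, 522 moved by less than 0.2 on the log2 scale, 85 by more, and the 2 named above changed sign from past 2-fold. That limit, and 0.1 for a median, were set by choice. No paired analysis was possible because the groups share only replicate number 1, and leaving out an array would leave a group empty.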
